A study of Mus musculus with 6 samples.

Results

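Genes of glucose uptake, glycolysis, lactate production and lactate transport were examined in whole mouse testis. They were chosen as 35 gene names, which matched 36 of the 55850 rows of the deposited expression table because Aldoa has 2 rows. RNA of 6 samples was sequenced, 3 labelled conditional knockout (cKO) and 3 labelled wild type (WT). By the series title, the splicing factor SRSF2 was lost from Sertoli cells, and the design text names a comparison of expression and splicing between the groups. All samples are labelled testis with no treatment. Strain, age, Cre driver and the deleted allele were not stated in the labels. Nothing there says that each sample is another animal, and p-values therefore speak only of the scatter among these libraries, which may be technical.

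Sertoli cells are the nurse cells of the seminiferous tubule. They take up glucose through facilitative transporters, break it down to pyruvate by glycolysis, reduce pyruvate to lactate with lactate dehydrogenase and export the lactate, which germ cells import and burn in their mitochondria. Pyruvate that is not reduced enters the mitochondrion through the mitochondrial pyruvate carrier and is oxidised by pyruvate dehydrogenase, whose activity pyruvate dehydrogenase kinases restrain.

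Levels are in FPKM, which counts sequenced fragments per length of gene and size of library. Recovered reads per library numbered 16185976 to 17281330 in cKO and 16070287 to 16479907 in WT testis. The share of reads from the 18S ribosomal RNA gene Rn18s-rs5 was 0.727 to 0.835% in cKO and 1.58 to 2.09% in WT libraries, while mitochondrial genes took 2.39 to 2.97% of reads in cKO and 1.66 to 1.98% in WT libraries. Srsf2 itself, which most cells of the testis express, had 74.0, 87.3 and 87.3 FPKM in cKO and 127.0, 96.7 and 101.8 FPKM in WT testis (log2 difference -0.38, SE 0.15, limma adjusted p = 0.384), without overlap. The part of the ribosomal and mitochondrial shares in the results below was not tested. In a whole tissue, fewer cells of a type and less RNA per cell cannot be told apart.

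Of the 36 rows, 35 had a mean of at least 1 FPKM and were tested. The remaining row was Pfkp, the platelet-type phosphofructokinase. With limma on log2(FPKM + 1), 0 of the 35 passed the adjusted threshold of 0.05, where 0.014% of the 14238 genes tested passed. The lowest limma adjusted p among the members was 0.361, for Pfkl. At an unadjusted p under 0.05, 5 of 35 members (14.3%) were lower in cKO testis, where 7.68% of all tested genes were, and 1 (2.86%) was higher, where 4.65% were. The 5 include the second Aldoa row, which rests on 5 to 29 reads per library and whose groups overlapped. In 8 members (22.9%) every cKO library lay below every WT library, where 9.92% of all tested genes did so. In 1 member (2.86%) every cKO library lay above, where 8.69% of genes did so. The 8 were the phosphofructokinases Pfkl and Pfkm, the glycolytic enzymes Tpi1, Pgk1 and Eno2, the lactate dehydrogenase Ldha, the lactate exporter Slc16a3 and its chaperone Bsg, and the 1 that was higher was Hif1a. The cKO means of the 8, which were picked by their lack of overlap, ranged from 61.9 to 79.5% of their WT means. The summed FPKM of 29 Sertoli cell markers in cKO testis was 69.5% of the WT mean. That list was drawn up with earlier results of these data known, and the part of the sum in these differences was not tested.

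The difference was negative in 25 of 35 members, 71.4%, against 49.2% of all tested genes, and the median log2 difference was -0.07, against 0.00 over all tested genes. The 5 lower members at an unadjusted p became 8 when WT replicate 2 was left out, a fit in which 10.3% of all genes were lower at that p. They became 3 when WT replicate 3 was left out (4.41% of all genes), 2 when cKO replicate 2 was (3.72%) and 1 when cKO replicate 3 was (3.37%). On the TPM scale 4 members did not overlap and were lower, namely Pfkl, Tpi1, Ldha and Bsg, where 6.39% of all genes tested on that scale did so, and 3 were higher, where 10.3% did so.

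**Figure D1:**
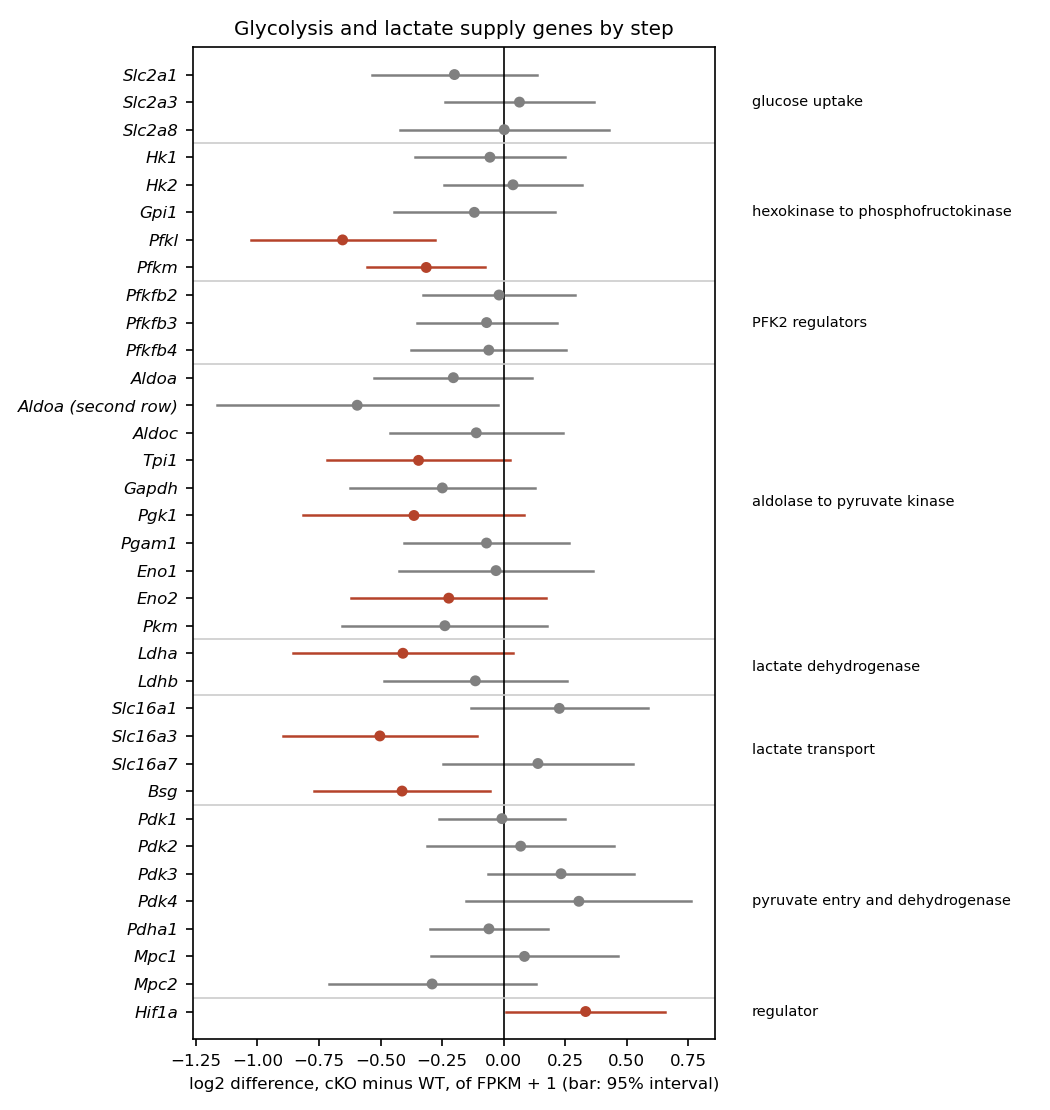
Log2 difference, cKO minus WT, of FPKM + 1 for the 35 tested rows in the order of the pathway, with 95% intervals from limma. Red marks the 9 rows whose cKO and WT libraries did not overlap, Pfkl being lowest among them at -0.65, and grey marks the others.

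Promoter sequence is shown for the 5 members without overlap in which a motif was found, because hypoxia-inducible factor, whose alpha subunit Hif1a encodes, is known to bind the letters ACGTG in promoters of glycolytic genes. The window of Pfkl, which holds no ACGTG on either strand, is given for contrast. Those of Tpi1 and Eno2 also hold none and are not shown. No other letters were searched for, so a window without ACGTG is not shown to lack a binding site. The windows are the 250 bases before a RefSeq transcription start on GRCm38.p6, written along the gene's strand. Capitals mark ACGTG on either strand, so that CACGT is the same motif read on the other strand and CACGTG holds both.
Pfkl (chr10:78009808-78010057, minus strand): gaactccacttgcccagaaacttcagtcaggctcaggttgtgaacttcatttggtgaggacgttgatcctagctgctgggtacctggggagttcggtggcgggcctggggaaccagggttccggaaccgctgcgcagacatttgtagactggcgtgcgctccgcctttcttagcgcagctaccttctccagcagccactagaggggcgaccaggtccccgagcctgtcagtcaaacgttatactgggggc
Pfkm (chr15:98092339-98092588, plus strand): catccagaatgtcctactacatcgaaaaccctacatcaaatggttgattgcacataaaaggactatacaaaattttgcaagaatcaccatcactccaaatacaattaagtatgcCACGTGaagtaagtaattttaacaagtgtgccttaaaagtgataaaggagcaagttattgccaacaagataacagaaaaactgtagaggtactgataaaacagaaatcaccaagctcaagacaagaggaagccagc
Pgk1 (chrX:106186850-106187099, plus strand): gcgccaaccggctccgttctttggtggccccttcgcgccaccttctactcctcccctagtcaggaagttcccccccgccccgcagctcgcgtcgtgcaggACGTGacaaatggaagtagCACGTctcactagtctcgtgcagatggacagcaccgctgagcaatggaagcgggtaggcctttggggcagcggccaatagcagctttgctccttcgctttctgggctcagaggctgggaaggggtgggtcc
Ldha (chr7:46845554-46845803, plus strand): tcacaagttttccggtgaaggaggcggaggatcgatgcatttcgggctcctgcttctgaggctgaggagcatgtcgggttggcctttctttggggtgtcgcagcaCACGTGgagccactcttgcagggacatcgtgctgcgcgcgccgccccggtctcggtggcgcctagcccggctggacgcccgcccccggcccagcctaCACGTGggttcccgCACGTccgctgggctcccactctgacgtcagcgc
Slc16a3 (chr11:120948817-120949066, plus strand): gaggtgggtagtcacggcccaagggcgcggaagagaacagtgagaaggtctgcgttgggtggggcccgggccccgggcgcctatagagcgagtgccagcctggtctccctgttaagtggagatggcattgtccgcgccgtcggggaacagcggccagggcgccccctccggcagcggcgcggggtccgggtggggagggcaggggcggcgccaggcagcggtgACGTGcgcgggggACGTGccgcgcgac
Hif1a (chr12:73907617-73907866, plus strand): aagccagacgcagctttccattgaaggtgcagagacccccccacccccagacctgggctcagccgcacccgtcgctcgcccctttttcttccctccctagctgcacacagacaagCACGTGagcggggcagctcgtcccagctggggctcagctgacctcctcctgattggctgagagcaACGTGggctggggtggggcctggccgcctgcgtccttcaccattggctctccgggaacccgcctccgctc
RefSeq windows were found for 32 of the 35 gene names, not for Bsg, Slc2a3 and Slc16a7. The motif was present in at least 1 window of 15 of these 32 genes, 46.9%, against 18.5% of all 27025 genes with a window. Of the 7 lower, non-overlapping genes with a window, 4 held it, namely Pfkm, Pgk1, Ldha and Slc16a3. The windows of Pfkl, Tpi1 and Eno2 did not. Windows of members whose groups overlapped held it too, namely those of Aldoa, Hk2, Pdk2, Pdk3, Pfkfb2, Pfkfb3, Pgam1, Pkm, Slc16a1 and Slc2a1. The motif was therefore not particular to the members without overlap. In Ldha the matches began at positions -145, -144, -48, -47 and -34 from the start used, and a second Ldha start had none. Pfkm has 4 starts, of which the one shown held the motif at -136 and -135, another held it at -244, and the other two held none. In Slc16a3 they began at -27 and -14. A match describes letters only, and the motif holds a CpG, so shares also follow base composition.

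For the 3 genes of glucose uptake the groups overlapped. Slc2a1, which encodes the basal glucose transporter GLUT1, was the most abundant of its step, with 14.0, 15.0 and 14.5 FPKM in cKO and 18.6, 13.4 and 18.9 FPKM in WT testis. The groups overlapped through WT replicate 2 (log2 difference -0.20, SE 0.14, limma adjusted p = 0.574). Slc2a3, the high-affinity transporter GLUT3, averaged 6.62 ± 0.989 FPKM in cKO and 6.27 ± 0.572 FPKM in WT testis (SD, n = 3 each). Slc2a8, an intracellular transporter, averaged 3.93 ± 0.684 FPKM in cKO and 3.96 ± 1.06 FPKM in WT testis.

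Among the first enzymes of the pathway, the groups did not overlap for the phosphofructokinase genes Pfkl and Pfkm, and they overlapped for Pfkp, the hexokinases and the isomerase. Phosphofructokinase makes the committed step of glycolysis. Pfkl, the liver-type subunit (ENSMUSG00000020277, chromosome 10 at 77986947 to 78010083 of GRCm38, minus strand), had 17.6, 14.5 and 13.1 FPKM in cKO and 29.0, 20.5 and 23.6 FPKM in WT testis. Every cKO library lay below every WT library, at 61.9% of the WT mean, the largest difference among the members with at least 5 FPKM. The log2 difference was -0.65 (SE 0.16, 95% interval -1.03 to -0.28, limma unadjusted p = 0.00377, adjusted p = 0.361), and it ranged from -0.77 to -0.53 when any 1 library was left out. Pfkl was also the 1 member with an unadjusted p under 0.05 in the fit without cKO replicate 3.

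Pfkm, the muscle-type subunit (chromosome 15 at 98092589 to 98132451, plus strand), had 15.7, 14.0 and 13.8 FPKM in cKO and 17.9, 18.6 and 18.2 FPKM in WT testis. Again no library of the groups overlapped, and the WT libraries lay close together. The log2 difference was -0.31 (SE 0.10, limma unadjusted p = 0.0165, adjusted p = 0.379), and it was -0.18 with length and GC trends removed. The unadjusted p was over 0.05 when WT replicate 3, cKO replicate 2 or cKO replicate 3 was dropped. It was also over 0.05 on the TPM scale, where the groups overlapped. Its exons share 341 bases with Gm26513 on the same strand and 18 with Senp1 on the other, and how the authors' counting divided such reads is not stated. Slc2a1, Hk1, Gpi1, Pfkp, Pfkfb2, Aldoa, Gapdh, Pkm, Slc16a7, Pdha1 and Mpc1 also share exon bases with other annotated genes and are uncertain in the same way. Pfkp, with 162 to 221 reads per library over a length of 13401 bases, fell just under the filter of 1 FPKM. It averaged 0.928 ± 0.0245 FPKM in cKO and 0.849 ± 0.117 FPKM in WT testis (SD, n = 3 each).

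The FPKM of Pfkl, Pfkm and Pfkp summed to 34.2, 29.5 and 27.8 in cKO and to 47.7, 40.0 and 42.7 in WT testis. These sums could not overlap, because Pfkl and Pfkm did not and Pfkp adds little. Pfkl supplied 51.5, 49.4 and 46.9% of that sum in cKO and 60.8, 51.1 and 55.4% in WT libraries, so its share overlapped between the groups. This sum and the ratios below were chosen after their values were seen and are given without a test.

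The hexokinases Hk1 and Hk2, which trap glucose in the cell, had similar levels, and their groups overlapped. Hk1 averaged 9.38 ± 1.32 FPKM in cKO and 9.77 ± 0.999 FPKM in WT testis, and Hk2 averaged 11.3 ± 1.25 FPKM in cKO and 11.0 ± 0.947 FPKM in WT testis (SD, n = 3 each). Gpi1, glucose phosphate isomerase and the most abundant gene of this step, had 41.3, 34.3 and 31.9 FPKM in cKO and 43.0, 39.3 and 34.4 FPKM in WT testis. These values overlapped (log2 difference -0.12, SE 0.14, limma adjusted p = 0.735).

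The bifunctional enzymes that make and remove the allosteric activator of phosphofructokinase were low in every library. Pfkfb4, the most abundant of them, had 5.15, 3.72 and 4.47 FPKM in cKO and 4.32, 4.53 and 5.13 FPKM in WT testis. Pfkfb2 and Pfkfb3 lay between 2.04 and 3.22 FPKM in all 6 libraries. Log2 differences of the 3 genes ran from -0.07 to -0.02, and each group overlapped the other.

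**Figure D2:**
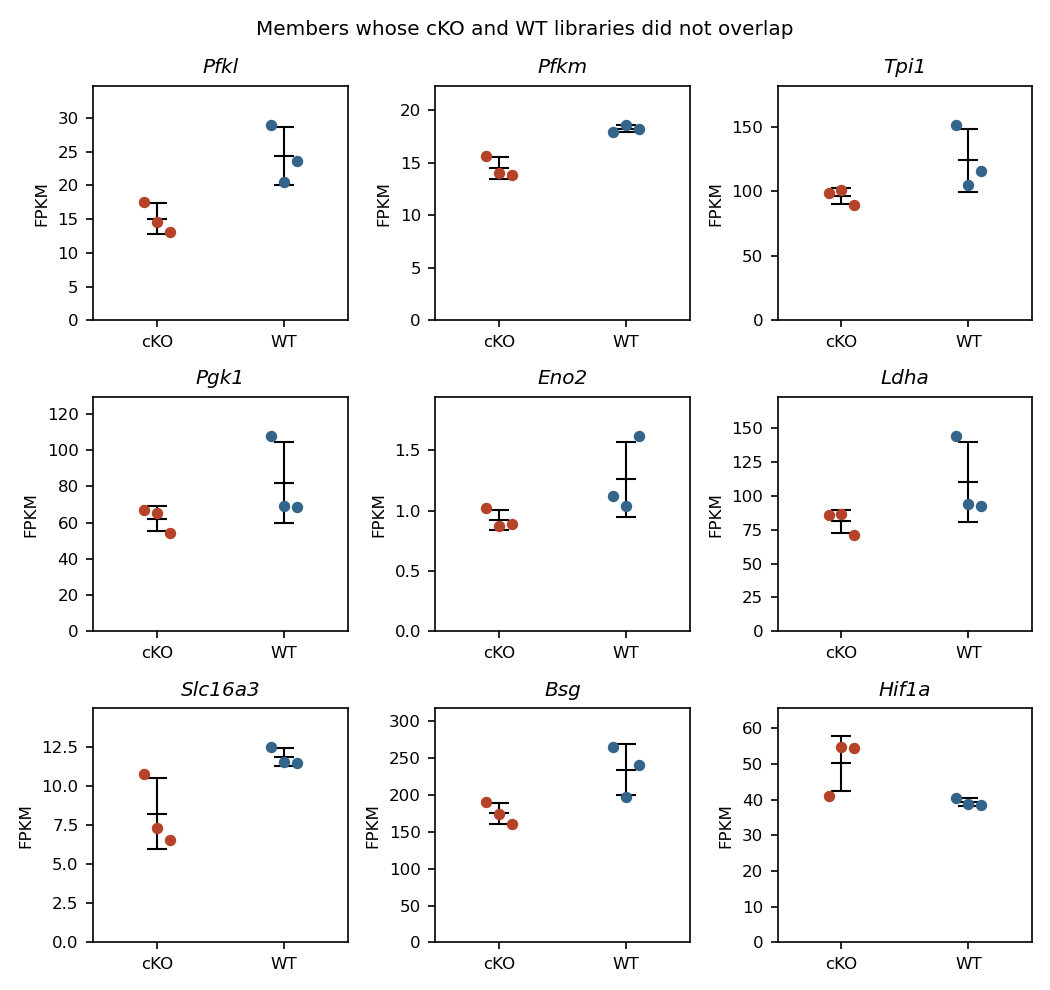
FPKM per library (points) with mean and SD (bars, n = 3) for the 9 members whose groups did not overlap, cKO left of WT in each panel. WT replicate 1, the leftmost WT point, stands above the other WT libraries for Tpi1, Pgk1 and Ldha.

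From aldolase to pyruvate kinase all 10 tested rows had a negative difference, where 49.2% of all tested genes had one, and 3 were without overlap, where 9.92% of genes were lower in that way. The 10 include the second Aldoa row, which rests on few reads, and Gapdh, whose listed level is uncertain. Not all of the signs held under other processing. The negative sign held in 12 of 17 other settings for Eno1, in 15 for Pgam1 and in 16 for Aldoc. With quantile normalization the differences of Eno1 and Pgam1 were 0.07 and 0.04. Aldoa, the aldolase of most tissues and the most abundant gene of the segment, had 187.8, 168.8 and 160.5 FPKM in cKO and 218, 178 and 200.4 FPKM in WT testis. Only cKO replicate 1 reached into the WT range (log2 difference -0.20, SE 0.14, limma adjusted p = 0.552). The second row named Aldoa (ENSMUSG00000114515), of 799 bases, rested on 5 to 29 recovered reads per library. It had 0.367, 0.994 and 0.690 FPKM in cKO and 0.866, 2.16 and 1.69 FPKM in WT testis, overlapping groups, and a limma unadjusted p of 0.0428 (adjusted p = 0.401). Its log2 difference of -0.59 was -0.27 with length and GC trends removed, -1.09 with a pseudocount of 0.1 and -1.15 with voom. Its unadjusted p was over 0.05 with that pseudocount, without a filter, on the TPM scale, with voom, with length and GC trends removed and in 4 of the 6 fits that left out a library.

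Tpi1, triosephosphate isomerase, which interconverts the triose phosphates (chromosome 6 at 124810586 to 124814296, minus strand), had 98.5, 101 and 89.5 FPKM in cKO and 151, 105 and 116 FPKM in WT testis. Pgk1, phosphoglycerate kinase, the first enzyme of the pathway to yield ATP (chromosome X at 106187100 to 106203699, plus strand), had 67.0, 65.1 and 54.4 FPKM in cKO and 107.6, 69.3 and 68.6 FPKM in WT testis. For both genes no libraries overlapped, but the gap between the nearest cKO and WT libraries was small and WT replicate 1 was far above the other WT libraries. Some 34 bases of Tpi1 exons are shared with Spsb2 on the other strand. The log2 difference of Tpi1 was -0.35 (SE 0.16, limma adjusted p = 0.419) and was -0.19 without WT replicate 1, -0.22 with quantile normalization and -0.23 with length and GC trends removed. That of Pgk1 was -0.36 (SE 0.19, limma adjusted p = 0.465) and was -0.15 without WT replicate 1. The Pgk1 groups overlapped on the TPM scale, with quantile normalization, with voom and with length and GC trends removed.

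Eno2, the neuronal enolase, had 1.02, 0.868 and 0.886 FPKM in cKO and 1.12, 1.04 and 1.62 FPKM in WT testis. Its values did not overlap either, but rested on 68 to 124 reads per library, and its log2 difference of -0.22 was -0.11 after removal of length and GC trends and likewise without WT replicate 3, but -0.39 with a pseudocount of 0.1 and -0.40 with voom. The Eno2 groups overlapped on the TPM scale and with length and GC trends removed. Eno1, the enolase of most tissues, averaged 142.6 ± 16.0 FPKM in cKO and 147 ± 28.3 FPKM in WT testis (SD, n = 3 each), a log2 difference of -0.03.

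The other rows of the segment overlapped. Pgam1, phosphoglycerate mutase, averaged 159 ± 21.5 FPKM in cKO and 167 ± 12.1 FPKM in WT testis. Pkm, pyruvate kinase, averaged 125 ± 19.5 FPKM in cKO and 148 ± 27.5 FPKM in WT testis (log2 difference -0.24, SE 0.18, limma adjusted p = 0.587). Aldoc, the brain-type aldolase, averaged 5.70 ± 0.778 FPKM in cKO and 6.27 ± 1.19 FPKM in WT testis (SD, n = 3 each).

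Gapdh, glyceraldehyde phosphate dehydrogenase, was listed at 1.32, 0.961 and 1.44 FPKM in cKO and 1.40, 1.77 and 1.80 FPKM in WT testis, far below every neighbouring step. It had 93, 70 and 97 recovered reads in cKO and 92, 123 and 121 in WT libraries. The table also holds 269 rows whose description names a pseudogene of this enzyme, of which 106 were above 0, and these together held 553, 523 and 537 reads in cKO and 452, 610 and 459 reads in WT libraries. For Ldha there were 26 such rows with 115 reads over all 6 libraries, against 31502 for the gene itself. How the authors treated reads that match several places is not stated, so the listed level of Gapdh is uncertain and no direction is read from it (log2 difference -0.25, limma adjusted p = 0.535).

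Lactate dehydrogenase is encoded by Ldha, whose product favours making lactate from pyruvate, and Ldhb, whose product favours the reverse. Ldha (ENSMUSG00000063229, chromosome 7 at 46841475 to 46855627, plus strand) had 85.6, 86.7 and 71.1 FPKM in cKO and 144, 93.9 and 92.2 FPKM in WT testis. The groups did not overlap, with 73.7% of the WT mean in cKO testis. The log2 difference was -0.41 (SE 0.19, 95% interval -0.86 to 0.04, limma adjusted p = 0.423), and it was -0.20 without WT replicate 1, which was the highest library for 12 of the 35 tested rows. With quantile normalization the groups overlapped.

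Ldhb was the more abundant gene, with 150.2, 175 and 153 FPKM in cKO and 186, 142 and 194 FPKM in WT testis, overlapping groups (log2 difference -0.11, SE 0.16, limma adjusted p = 0.771). The ratio of Ldha to Ldhb was 0.570, 0.494 and 0.465 in cKO and 0.773, 0.662 and 0.475 in WT libraries. WT replicate 3 lay among the cKO libraries in this ratio. Ldhc, the dehydrogenase of spermatocytes and spermatids, gave 0.790 to 1.61% of the FPKM of these genes in cKO and 0.580 to 1.61% in WT libraries.

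Lactate leaves cells through the low-affinity transporter MCT4, encoded by Slc16a3, and enters or leaves through MCT1 and MCT2, encoded by Slc16a1 and Slc16a7. Slc16a3 (ENSMUSG00000025161, chromosome 11 at 120948480 to 120960868, plus strand) had 10.8, 7.31 and 6.57 FPKM in cKO and 12.5, 11.5 and 11.5 FPKM in WT testis. The groups did not overlap, although cKO replicate 1 lay close to the WT libraries. The log2 difference was -0.50 (SE 0.17, 95% interval -0.90 to -0.11, limma unadjusted p = 0.0186, adjusted p = 0.379), with a range of -0.69 to -0.37 when any 1 library was left out. Leaving out cKO replicate 2 or cKO replicate 3 took the unadjusted p over 0.05. On the TPM scale the Slc16a3 groups overlapped.

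Slc16a1 had 9.29, 11.7 and 13.5 FPKM in cKO and 9.52, 8.43 and 10.9 FPKM in WT testis. These overlapped, with a difference of the opposite sign to that of Slc16a3 (log2 0.23, SE 0.16, limma adjusted p = 0.558). Slc16a7 averaged 1.15 ± 0.121 FPKM in cKO and 0.958 ± 0.218 FPKM in WT testis (SD, n = 3 each). The ratio of Slc16a3 to Slc16a1, which no scaling between libraries alters, was 1.16, 0.624 and 0.488 in cKO and 1.31, 1.37 and 1.05 in WT libraries. cKO replicate 1 lay inside the WT range, and the other cKO libraries lay below it.

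Bsg, basigin, is the membrane glycoprotein that carries MCT1 and MCT4 to the cell surface, and it was the most abundant gene of the transport step. Bsg (ENSMUSG00000023175, chromosome 10 at 79704491 to 79711969, plus strand) had 189.8, 174 and 161 FPKM in cKO and 265, 197 and 241 FPKM in WT testis. All cKO libraries were below all WT libraries, with 74.6% of the WT mean. The log2 difference was -0.41 (SE 0.16, limma unadjusted p = 0.0291, adjusted p = 0.381), and it was -0.18 with length and GC trends removed, where the unadjusted p no longer lay under 0.05. The same held when WT replicate 1, WT replicate 3, cKO replicate 2 or cKO replicate 3 was left out.

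Emb, embigin, a relative of basigin that is the partner of MCT2, was higher without overlap. It had 3.37, 4.19 and 3.52 FPKM in cKO and 2.75, 2.32 and 2.28 FPKM in WT testis (log2 difference 0.44, limma unadjusted p = 0.0101, adjusted p = 0.372). The ratio of Bsg to Emb was 56.4, 41.6 and 45.6 in cKO and 96.3, 85.0 and 105 in WT libraries. Its lack of overlap follows from that of both genes and is no further result.

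**Figure D3:**
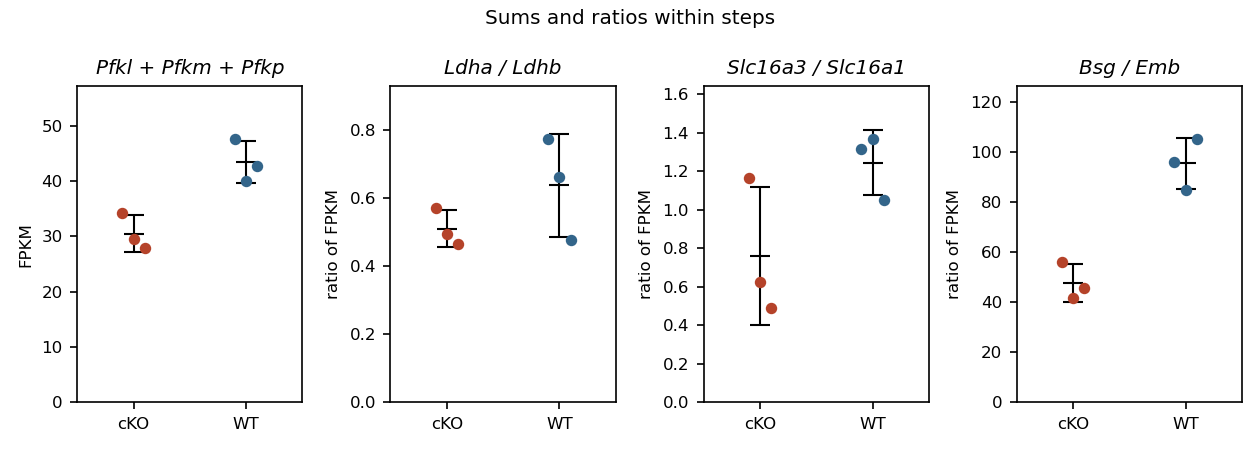
Summed FPKM of the phosphofructokinases and ratios of FPKM within a library for Ldha to Ldhb, Slc16a3 to Slc16a1 and Bsg to Emb, as points per library with mean and SD (n = 3), cKO left of WT. The phosphofructokinase sum and the ratio of Bsg to Emb did not overlap between the groups, which follows from the separation of their single genes. The other ratios overlapped.

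By FPKM in the 6 libraries, the groups overlapped for every member that governs the entry of pyruvate into mitochondria. Pdk3, a pyruvate dehydrogenase kinase and the most abundant gene of this step, had 22.0, 26.4 and 24.7 FPKM in cKO and 23.2, 18.3 and 20.5 FPKM in WT testis. WT replicate 1 lay above cKO replicate 1 (log2 difference 0.23, SE 0.13, limma adjusted p = 0.478). The difference of Pdk3 was 0.30 on the TPM scale (limma adjusted p = 0.468) and 0.30 with quantile normalization (limma adjusted p = 0.355). In both settings Pdk3 and Hif1a were the members that were higher at an unadjusted p under 0.05. Pdk4, the kinase that starvation induces, averaged 1.64 ± 0.601 FPKM in cKO and 1.11 ± 0.127 FPKM in WT testis, with its highest value, 2.28, in cKO replicate 2. Pdk1 averaged 7.68 ± 0.355 FPKM in cKO and 7.73 ± 0.751 FPKM in WT testis, and Pdk2 averaged 12.6 ± 1.06 FPKM in cKO and 12.1 ± 2.61 FPKM in WT testis (SD, n = 3 each).

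Pdha1, the catalytic subunit of pyruvate dehydrogenase, was the steadiest of these genes, at 17.3 ± 0.688 FPKM in cKO and 18.1 ± 0.971 FPKM in WT testis. The pyruvate carrier subunits Mpc1 and Mpc2 averaged 2.91 ± 0.471 and 5.02 ± 0.473 FPKM in cKO and 2.70 ± 0.558 and 6.49 ± 1.84 FPKM in WT testis (SD, n = 3 each). A further list of 10 tested genes held genes of the pyruvate dehydrogenase system and also pyruvate carboxylase, Pcx. Of these 10, 9 had a positive and 1, Pcx, a negative difference, where 49.2% of all tested genes had a negative one. In 0 of the 10 the groups did not overlap, where 18.6% of all tested genes lay apart in either direction. Dld, the dehydrogenase subunit shared with other complexes, averaged 40.5 ± 3.22 FPKM in cKO and 36.3 ± 4.12 FPKM in WT testis. Pcx, pyruvate carboxylase, averaged 17.2 ± 2.14 FPKM in cKO and 19.5 ± 0.324 FPKM in WT testis (SD, n = 3 each).

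Hif1a, the oxygen-regulated subunit of hypoxia-inducible factor and an activator of many of these genes, was the member that was higher. Hif1a (ENSMUSG00000021109, chromosome 12 at 73901375 to 73947530, plus strand) had 41.1, 54.7 and 54.6 FPKM in cKO and 40.5, 38.9 and 38.4 FPKM in WT testis. The groups did not overlap, but cKO replicate 1 was next to the highest WT library. The log2 difference was 0.33 (SE 0.14, 95% interval 0.01 to 0.65, limma unadjusted p = 0.0443, adjusted p = 0.402), and it was 0.15 with length and GC trends removed. In that fit the groups overlapped. Its unadjusted p was over 0.05 there, with the replicate block, and in 4 of the 6 fits that left out a library, all but those without WT replicate 1 and without cKO replicate 1. The exons share 330 bases with Gm15283 on the opposite strand and 148 with Gm49321 on the same strand. The messenger level does not measure the protein, which oxygen regulates by degradation.

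Among 18 tested genes of the hypoxia pathway, drawn up with earlier results of these data known, 0 passed the adjusted threshold, 4 were lower at an unadjusted p under 0.05, where 7.68% of all tested genes were, and 0 were higher, where 4.65% were. In 3 of the 18 the cKO libraries lay wholly below the WT libraries, where 9.92% of genes did so, and in 1 wholly above, where 8.69% did so. Ddit4, a stress-induced inhibitor of mTOR signalling, averaged 39.0 ± 2.74 FPKM in cKO and 60.7 ± 8.76 FPKM in WT testis (log2 difference -0.62, limma unadjusted p = 0.00196, adjusted p = 0.360). Egln1, a prolyl hydroxylase that marks HIF for degradation, averaged 24.6 ± 1.92 FPKM in cKO and 30.2 ± 2.15 FPKM in WT testis (SD, n = 3 each).

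Connected pathways gave 0 genes past the adjusted threshold. In the pentose phosphate pathway 7 of 10 genes had a negative difference, where 49.2% of all tested genes had one. Prps2, a phosphoribosyl pyrophosphate synthetase, was higher without overlap, where 8.69% of all tested genes were. It averaged 8.27 ± 0.785 FPKM in cKO and 6.68 ± 0.746 FPKM in WT testis. Pgls, which opens the lactone ring in that pathway, averaged 22.4 ± 2.85 FPKM in cKO and 29.9 ± 7.79 FPKM in WT testis. In the tricarboxylic acid cycle 11 of 18 genes had a negative and 7 a positive difference. Of these 18 genes, 2 were lower without overlap, where 9.92% of all tested genes were. Idh3b, a subunit of isocitrate dehydrogenase, averaged 24.9 ± 1.64 FPKM in cKO and 29.8 ± 2.26 FPKM in WT testis (SD, n = 3 each). Suclg2, of succinate ligase, stood at a log2 difference of 0.28. In each of these lists 0 genes had an unadjusted p under 0.05, where 7.68% of all tested genes were lower and 4.65% higher at that p.

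Of 29 other isozymes, transporters and testis-type enzymes, 12 had a mean below 1 FPKM, among them Pgk2, which replaces Pgk1 in late germ cells and had 0 to 3 reads per library. Of the 17 tested, 1 was higher at an unadjusted p under 0.05, Emb, where 4.65% of all tested genes were. At that p 0 were lower, where 7.68% were. Pgam2, the muscle-type mutase, averaged 2.90 ± 0.338 FPKM in cKO and 3.60 ± 0.196 FPKM in WT testis, without overlap (limma adjusted p = 0.454).

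Of the summed cell type markers, those of Sertoli cells and, narrowly, of endothelium did not overlap between the groups, and the other sums overlapped. The marker lists were drawn up with earlier results of these data known, so their counts and sums are no independent evidence. The 29 Sertoli cell markers, each with a mean above 1 FPKM, summed to 2308, 2200.0 and 2057 FPKM in cKO and to 3501, 2656 and 3285 FPKM in WT testis, without overlap, and 16 of 29 were lower without overlap, where 9.92% of all tested genes were. Their cKO sum was 69.5% of the WT mean, and 75.8% without Amh. The 8 lower members, which were picked by their lack of overlap, stood at 61.9 to 79.5%. All member rows summed to 1534, 1473 and 1332 FPKM in cKO and to 1895, 1499.7 and 1605 FPKM in WT testis, overlapping groups. Cst9 and Shbg had the lowest p of the Sertoli list, at log2 differences of -1.01 and -0.66 (limma adjusted p = 0.306 and 0.316). The 20 germ cell markers, 2 of them below 1 FPKM, summed to 610.3, 596 and 408 FPKM in cKO and to 649.9, 460.0 and 315 FPKM in WT testis. These sums overlapped. Of the 18 germ cell markers tested, 15 had a positive and 3 a negative difference, where 49.2% of all tested genes had a negative one. Without overlap, 3 were higher and 1 was lower, where 8.69% and 9.92% of all tested genes were. Tex14 and Tex15, which act in germ cell bridges and in meiosis, had the lowest p there, at log2 differences of 0.49 and 0.69. WT replicate 1, the library highest for Pgk1, Ldha and Tpi1, was also the highest in Sertoli and germ cell marker sums.

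The 8 red blood cell markers, all 8 with a positive difference, summed to 4873 to 6560.1 FPKM in cKO and 2720 to 5737 FPKM in WT testis. The 9 Leydig cell markers, 1 of them below 1 FPKM, summed to 1539 to 1797 FPKM in cKO and 1326 to 1959.9 FPKM in WT testis. Endothelial markers summed to 87.0 to 96.1 FPKM in cKO and 96.6 to 109 FPKM in WT testis, macrophage markers to 66.7 to 112 FPKM in cKO and 68.2 to 86.9 FPKM in WT testis, and peritubular myoid markers to 181 to 214 FPKM in cKO and 178 to 214 FPKM in WT testis. The genes of lowest p in these lists were Hbb-bs and Hbb-bt of red cells, at log2 differences of 0.69 and 0.80, Lhcgr and Hsd17b3 of Leydig cells, at 0.51 and -0.15, Egfl7 and Tie1 of endothelium, at -0.61 and -0.28, C1qa and C1qb of macrophages, at -0.63 and -0.44, although 5 of the 8 tested macrophage markers had a positive difference, and Des and Actg2 of myoid cells, at -0.28 and -0.09. The lowest limma adjusted p among these 10 genes was 0.360, for C1qa. The globins have near-identical copies, and how their reads were divided is not stated. No gene of these lists had a mean of 0. The part of cell composition in the differences of glycolytic genes was not tested.

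**Figure D4:**
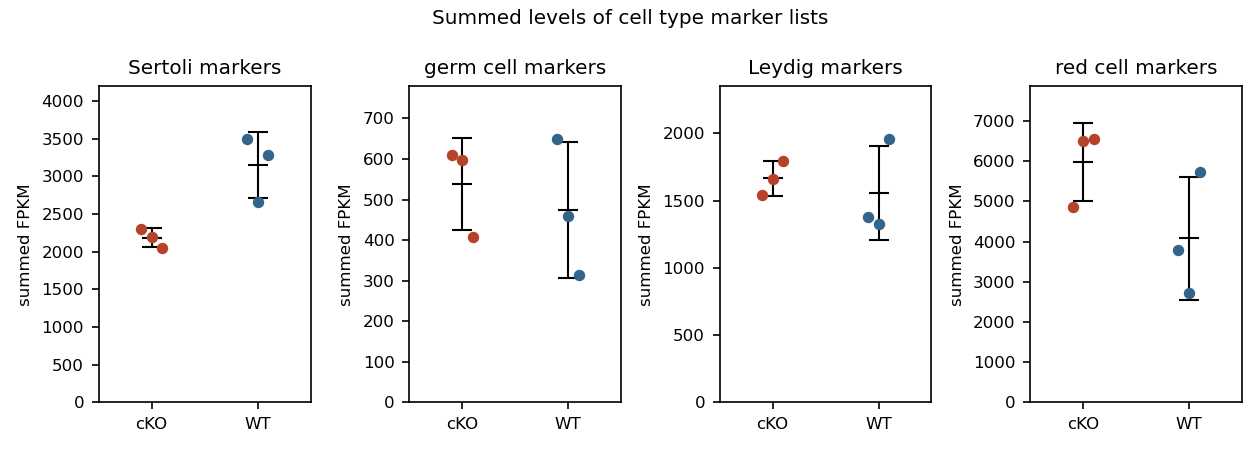
Summed FPKM of the Sertoli, germ cell, Leydig and red blood cell marker lists per library (points) with mean and SD (bars, n = 3), cKO left of WT. The Sertoli sums of cKO testis, 2057 to 2308, lie below those of WT testis, 2656 to 3501, and the other sums shown overlap.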

How the data were processed

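RNA of 6 testis samples, 3 cKO and 3 WT per the labels' genotype field, was extracted with Trizol and made into libraries with a SMARTER mRNA-Seq kit, per the labels' protocols. The authors deposited 1 table of FPKM per gene. Builds named in the submitters' processing notes are GRCm38 and mm10. Aligner, counting tool, strand use and the handling of multiply matching reads: not given in the sources used here. Of 52081 gene identifiers shared with GENCODE M21 on GRCm38, 1499 had the same start, so positions printed are those of GENCODE M21, found by identifier. FPKM times gene length, another deposited column, came out as whole reads (tolerance 0.01) for 99.9884 to 99.9962% of values above 0, depending on the library. No pair of libraries agreed within sampling noise (chi-square per degree of freedom at least 11.3).

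Genes whose FPKM averaged 1 or more over the 6 libraries were tested with limma 3.58.1 in R 4.3.3, on log2(FPKM + 1) and with the prior variance following the mean. Differences are cKO minus WT, and p-values were adjusted by Benjamini-Hochberg over all genes tested. A fold change on this scale understates that of low genes. Exact permutation of 3 against 3 cannot give a two-sided p below 0.1. The procedure was run on simulated data with planted changes larger than any member's difference in this fit. That run does not show how often differences of the size seen here would be found. Members and lists were chosen with earlier results of these data known. Values per library are given for the most abundant member of each step and for members without overlap or with an unadjusted p under 0.05, and from each other list the 2 tested genes of lowest p are named. Some other genes (Pgk2, Ldhc, Pklr and red cell genes) were chosen after their values were seen. Of 20 hypoxia pathway symbols 19 were in the table. Alternatives were other pseudocounts, filters and scalings, no trend, voom, a replicate block, removal of length and GC trends (GC known for 97.9% of tested genes) and leaving out each library. Python 3.11.15 and pandas 2.3.3 joined the tables.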

Additional observations from a re-analysis of the deposited data

How the results depend on the processing

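Over 17 other settings, 0 members passed the adjusted threshold in any of them, and the lowest limma adjusted p of any member was 0.181. None of the 9 members without overlap changed sign, but some of the others did, among them Eno1, Pgam1 and Aldoc. The number of all genes past the threshold, 2 as reported, was 1 with a pseudocount of 0.1 or 0.5, with the filter raised to 5 FPKM or with voom, 0 without a filter, 3 with length and GC trends removed, and 0 to 0 when 1 library was left out. Same-numbered samples did not all deviate together (correlations 0.09, -0.33 and 0.39), and with the replicate number as a block 0 genes passed and 0 members were higher at an unadjusted p under 0.05. That last count, 1 as reported, was 2 on the TPM scale or with quantile normalization and 0 to 3 when 1 library was left out. Lower members at an unadjusted p numbered 3 with length and GC trends removed, where 5.42% of all genes were lower at that p. They numbered 1 to 8 when 1 library was left out, where 3.37 to 10.3% of all genes were. Lower members without overlap numbered 4 on the TPM scale, where the share of all genes was 6.39% in place of 9.92%. They numbered 7 with quantile normalization (9.35% of all genes), with voom (7.72%) or with the filter at 5 FPKM (12.2%). When 1 library was left out they numbered 8 to 13, where the share of all genes was 12.0 to 19.4%. Higher ones numbered 3 on the TPM scale, where 10.3% of all genes were higher without overlap in place of 8.69%. They numbered 2 with quantile normalization and 1 to 4 when 1 library was left out. Shares of all genes that were higher are not given for the other settings. In the fits with 2 samples in a group, overlap is less likely for every gene. The causes of these shifts were not tested. Depth limits the rows with few reads, among them the second Aldoa row, Gapdh, Eno2, Pdk4 and Mpc1.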

Other observations

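Pklr, which encodes the pyruvate kinase of liver and red cells and was not among the members, varied widely among libraries, and its groups overlapped. It had 0.0543, 1.49 and 4.89 FPKM in cKO and 0.0389, 0.405 and 6.37 FPKM in WT testis. Genes of maturing red cells also varied widely. Slc4a1, the anion exchanger of the red cell membrane, had 4.31, 19.4 and 38.1 FPKM in cKO and 1.02, 2.80 and 27.9 FPKM in WT testis. Bpgm, the red cell mutase that makes the regulator of haemoglobin's oxygen affinity, had 10.3, 11.9 and 12.1 FPKM in cKO and 9.29, 8.93 and 15.1 FPKM in WT testis. For these genes replicate 3 was the highest library of its group in both groups. The genes were chosen after their values were seen, and no test was made.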
